A study of Mus musculus with 28 samples.

Results

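The results concern stress in mice that carried the virus labelled as the Slit1 knockdown: 7 libraries from stressed mice against 7 from unstressed mice, 14 of the 28 libraries in the series. They are all libraries labelled with the virus Slit1 and the treatment Stress or No Stress. Each library came from one female mouse and held total RNA of the ventromedial prefrontal cortex (vmPFC), punched from the brain after the virus had been placed there. Stressed mice had gone through 3 days of sCVS, a stress procedure, and unstressed mice were taken at baseline. Both groups carried the Slit1 virus, so none of the 14 was free of it. Another 14 libraries, 7 stressed and 7 unstressed, came from mice given a LacZ control virus and are used here only for the difference between the viruses. Strain, age, the type of the virus and the cells it entered were not given in the sources used here.

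Slit1 encodes a secreted guidance protein that acts through Robo receptors to repel growing axons and to shape dendrites. The vmPFC is a cortical region that helps to regulate the hormonal and behavioural response to stress. Repeated stress is known to act on it through glucocorticoid hormones, on excitatory synapses and dendritic spines, on myelin and on inflammatory signalling. The gene lists below follow these roles.

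The libraries held 30647778 to 44281716 counted fragments. Mitochondrial transcripts made up 2.30 to 14.2% of counts in the unstressed group and 3.09 to 7.67% in the stressed group. The unstressed library titled 40 stood apart with the lowest total of the 28, 20882 genes with a count and 14.2% mitochondrial counts. The main axis of variation over all 28 libraries, their first principal component, held 58.8% of the variance. Library 40 lay lowest on it at -150, the stressed library titled 33 at -99.6 and the unstressed library titled 36 at -95.1. The slopes of their log2 CPM on GC content, against the mean of all libraries, were -0.734, -0.559 and -0.46. Library 36 held 10.5% mitochondrial counts. The axis itself was not part of any fit. Markers of the labelled tissue were present in every one of the 14 libraries. Slc17a7, the vesicular glutamate transporter of cortical excitatory neurons, ran from 13.2 to 235 CPM (the usual per-million scaling of counts to library size) in unstressed and from 22.5 to 232 CPM in stressed libraries. Neurod6, a transcription factor of cortical projection neurons, ran from 34.3 to 193 CPM and from 41.3 to 133 CPM.

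A second library stood apart by its tissue content. The stressed library titled 18 held bone transcripts at levels that no other library of the series approached. Mmp13, a collagenase of bone and cartilage, had a lowest, median and highest level of 0.289, 0.33 and 1.42 CPM in the 7 unstressed libraries and of 0.304, 0.632 and 223 CPM in the stressed ones. The 223 CPM belonged to library 18, and the next highest of all 28 libraries had 2.04 CPM. Ctsk, the collagen-degrading protease of osteoclasts, stood at 252 CPM in library 18 and at no more than 6.02 CPM elsewhere. Ibsp, a mineral-binding protein of bone matrix, stood at 218 CPM there and at no more than 3.02 CPM elsewhere. Col1a1, the main collagen chain of bone, had 633 CPM in library 18 and between 0.482 and 2.44 CPM in the other 6 stressed libraries. Col1a2, the second chain of that collagen, had 999 CPM in library 18 and no more than 31.1 CPM elsewhere, and Mmp9, a gelatinase of osteoclasts and neutrophils, had 95.5 and no more than 1.32 CPM. Acp5, another osteoclast gene, was listed at 0 in all 14 libraries, but it lies wholly within other annotated genes, where the counting assigned no reads. Of the defining marrow genes, Ngp, of neutrophil granules, had 2.72 CPM in library 18 against 0.211 CPM in the next highest library. Mpo had 0.204 against 0.188 CPM, and Elane 0.0227 CPM against 0 in every other library.

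**Figure D1:**
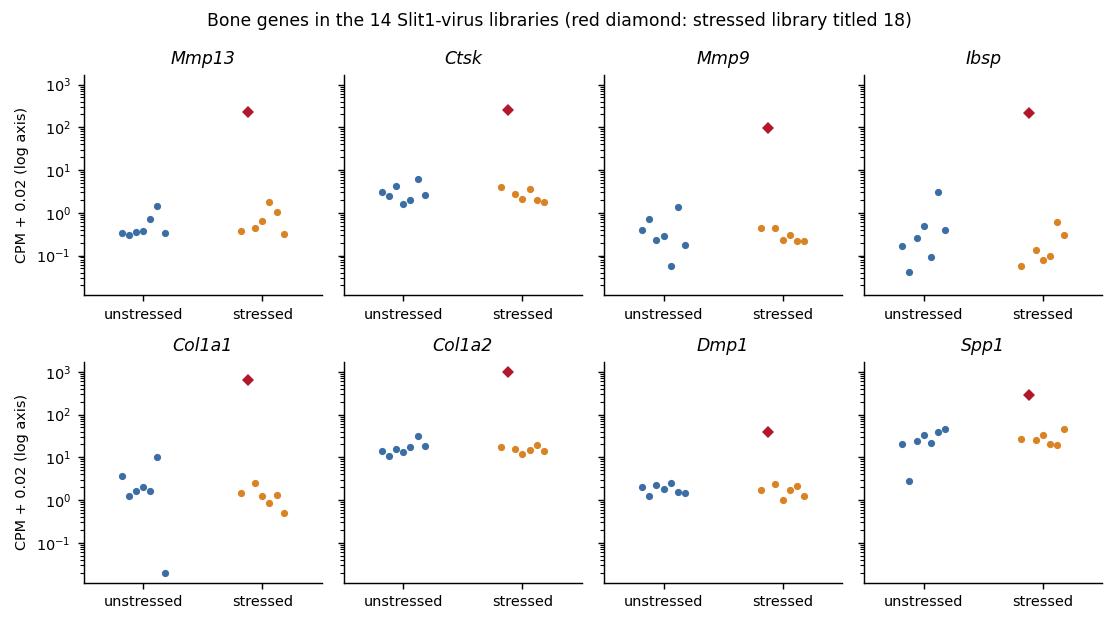
CPM of 8 bone matrix and osteoclast genes in each of the 14 Slit1-virus libraries, on a log axis after adding 0.02. Blue points are the 7 unstressed libraries, orange points the stressed ones, and the red diamond is the stressed library titled 18, which lies above every other point in each panel.

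These genes led the comparison of 7 with 7 on the higher side. The log2 fold change of Mmp13 was 5.93 ± 1.40 (SE) with library 18 and 0.48 ± 0.66 without it. That of Ctsk was 3.61 ± 0.94 and then -0.22 ± 0.34. That of Ibsp was 5.62 ± 1.56 and then -1.75 ± 0.76. Of 20 bone matrix and osteoclast genes tested, 19 lay above 0 with a median log2 fold change of 1.56, and without library 18 the count was 8 of 20 with a median of -0.13. Meningeal and fibroblast markers followed it in part, with 16 of 17 above 0 and a median of 0.61, against 11 of 17 and 0.16 without library 18. Of the 12 named genes with the smallest p on the higher side in the 7-with-7 comparison, 11 had their highest stressed level in library 18. Fold changes and list medians below are therefore given with library 18 first and without it second, unless a sentence says otherwise.

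No gene passed an adjusted p of 0.05 in edgeR's quasi-likelihood test of stressed against unstressed Slit1-virus libraries, 0 of 19171 tested (0.0%), or in the same test without library 18, 0 of 19340 (0.0%). An unadjusted p under 0.05 was reached by 343 genes (1.79%), 140 higher (0.73%) and 203 lower (1.06%) in stressed libraries. Without library 18 it was reached by 533 genes (2.76%), 179 higher (0.926%) and 354 lower (1.83%). The shares of 1.79% and 2.76% lay below the share of 0.05 that this threshold gives when no gene differs. The split differed between fits, since 40.8% of the 343 genes were higher but 64.9% of 279 were in a fit on the 14 Slit1-virus libraries alone, which tested 18252 genes. It was 52.9% with the mitochondrial share as a covariate and 54.7% with no filter on low counts. Without library 18 the 4 shares were 33.6%, 72.1%, 51.8% and 55.3%. The median log2 fold change over all genes was -0.01 with library 18 and -0.02 without it. The genes and lists that follow are therefore given by their values, and no single member of a list passed the test.

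The targeted gene itself is described first. Slit1 (chromosome 19, 41600257 to 41743665, GRCm38) had a lowest, median and highest level of 9.48, 21.4 and 59.9 CPM in unstressed Slit1-virus libraries and of 7.48, 13.03 and 30.9 CPM in stressed ones. The groups overlapped, with 3 of 7 stressed libraries above the unstressed mean. Library 18 held the highest stressed value. The mean log2 CPM was 0.44 lower in stressed libraries, with the exact two-sided permutation test giving p = 0.350, and 0.60 lower without library 18, with exact p = 0.224. Without the unstressed library titled 38 the difference was -0.20, with exact p = 0.640. LacZ-virus libraries had 24.4 ± 16.1 CPM unstressed and 19.8 ± 10.2 CPM stressed (SD, n = 7), against 25.9 ± 17.5 and 18.2 ± 9.80 CPM under the Slit1 virus. These counts cover the whole gene, introns included, so they do not measure mature Slit1 mRNA alone. The ranges of the 2 viruses overlapped in both states, so the counts of Slit1 did not set the libraries labelled as a knockdown apart. Below, Slit1 virus refers to that label.

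Among the other ligands, Slit3 had 111, 180 and 415 CPM unstressed and 101.6, 154 and 239 CPM stressed, a log2 fold change of -0.35 ± 0.23, or -0.49 ± 0.24 without library 18. It was -0.066 without library 38. Slit2 had a log2 fold change of -0.17 ± 0.29, then -0.19 ± 0.31, and 0.0042 without the unstressed library titled 36. Of the receptors, Robo1 stood at -0.27 ± 0.23 and then -0.28 ± 0.24, Robo2 at -0.26 ± 0.31 and -0.25 ± 0.33, Robo3 at 0.32 ± 0.45 and 0.31 ± 0.48 and the endothelial receptor Robo4 at -0.37 ± 0.36 and -0.34 ± 0.38. Single libraries moved these too. Without library 40, Robo1 stood at -0.15 and Robo2 at -0.022, without library 38 Robo4 stood at -0.17, and without the stressed library titled 31 Robo3 stood at 0.18. A pair of cytoplasmic partners of Robo signalling also lay below 0. Srgap3, a Rac GTPase-activating protein, stood at -0.30 ± 0.20 and then -0.39 ± 0.20, but at -0.13 without library 38, and Enah, an actin regulator, at -0.29 ± 0.19 and -0.29 ± 0.20. Of 19 Slit, Robo and effector genes tested, 2 lay above 0 and the median was -0.20, or -0.26 without library 18 and -0.13 without library 38. The median under LacZ was also -0.20.

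Genes of excitatory synapses and of membrane excitability had lower values in stressed libraries almost throughout. All 24 glutamate receptor subunits lay below 0, with a median log2 fold change of -0.31, and of 24 without library 18 none lay above 0 with a median of -0.34. Over all genes 47.5% lay above 0, and 45.7% without library 18. Grin2b, the NMDA receptor subunit that is typical of young and extrasynaptic receptors (chromosome 6, 135713233 to 136173511), had 952, 1176 and 1631 CPM unstressed and 761, 945 and 1246 CPM stressed. All 7 stressed libraries were below the unstressed mean and 4 were below every unstressed library. Its log2 fold change was -0.42 ± 0.15, with an edgeR p of 0.0122 before and 1.00 after adjustment, and -0.49 ± 0.16 without library 18. Grid1, a delta-type receptor of synapse formation, stood at -0.41 ± 0.17 and then -0.44 ± 0.18, Gria1, an AMPA receptor subunit, at -0.31 ± 0.17 and -0.36 ± 0.18, and Grin3a at -0.26 ± 0.14 and -0.27 ± 0.14. Without library 38 Grid1 stood at -0.23 and Gria1 at -0.13.

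The proteins that hold these receptors in the postsynaptic density followed the same sign. Of 22 scaffold genes tested, 1 lay above 0 with a median of -0.35, and none without library 18 with a median of -0.40. Homer2, which links metabotropic receptors to intracellular calcium stores, had 67.0, 97.6 and 130 CPM unstressed and 61.1, 77.8 and 88.5 CPM stressed, and all 7 stressed libraries lay below the unstressed mean. Homer2 stood at -0.39 ± 0.17 and then -0.41 ± 0.18 on the log2 scale. Dlgap2 and Dlgap1, which bind PSD-95, stood at -0.39 ± 0.19 and -0.38 ± 0.21 with library 18 and at -0.49 ± 0.19 and -0.40 ± 0.22 without it. Without library 38 Dlgap2 stood at -0.21.

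Of 37 potassium, sodium and calcium channel genes, 1 lay above 0 with a median of -0.25, and none without library 18 with a median of -0.36. Kcnj6, the GIRK2 potassium channel that inhibitory G protein-coupled receptors open, had 46.8, 81.3 and 198 CPM unstressed and 40.7, 60.8 and 110 CPM stressed. Library 18 was the highest stressed library and the unstressed library titled 38 the highest of the 14, and the groups overlapped. The log2 fold change of Kcnj6 was -0.54 ± 0.23 with library 18, -0.73 ± 0.22 without it and -0.24 without library 38. Kcnd3, an A-type potassium channel, stood at -0.38 ± 0.16 and then -0.40 ± 0.17, but at -0.18 without library 38, and Cacna1e, the R-type calcium channel, at -0.35 ± 0.15 and -0.40 ± 0.16. Of 24 synaptic vesicle genes, 3 lay above 0 with a median of -0.21, and 1 did without library 18 with a median of -0.29. Syn1, a phosphoprotein that tethers vesicles, stood at -0.35 ± 0.17 and then -0.48 ± 0.17. Without library 38 the vesicle median was -0.12 and Syn1 stood at -0.22. The GABA system had 2 of 20 above 0 in both fits, with medians of -0.20 and -0.21, and the median was -0.04 without the unstressed library titled 40.

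The same libraries set the size of these differences. The unstressed library titled 38 was the highest of the 14 for the mean level of glutamate receptor, scaffold and channel genes, at 0.45, 0.59 and 0.48 log2 units above the unstressed mean. Library 18 was the highest stressed library in each of them, at 0.06, 0.25 and 0.25. The other 6 stressed libraries ran from -0.44 to -0.20 for glutamate receptors, and the unstressed ones from -0.32 to 0.45, so the groups overlapped. Leaving out 1 Slit1-virus library at a time kept each of the 3 medians below 0, between -0.41 and -0.19 for glutamate receptors, between -0.41 and -0.15 for scaffold genes and between -0.36 and -0.14 for channels. The smallest of these sizes came without library 40 for glutamate receptors and without library 38 for the other two lists.

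**Figure D2:**
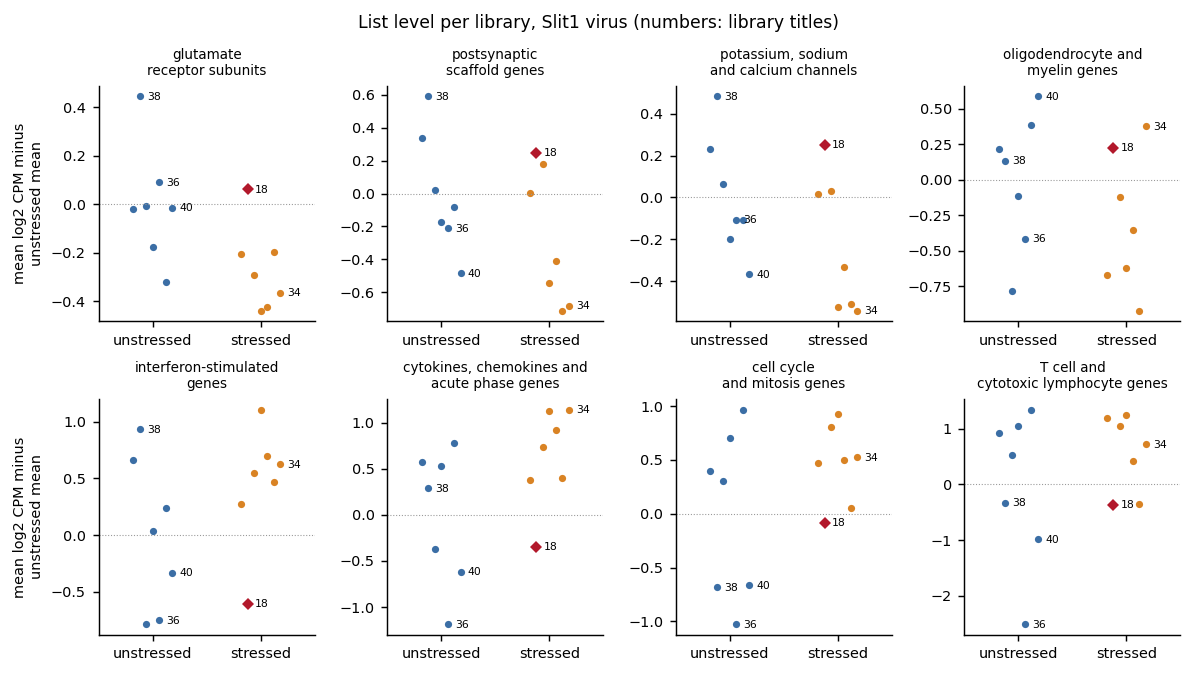
Mean level of 8 gene lists in each Slit1-virus library, as the mean log2 CPM of the members tested minus the mean of the 7 unstressed libraries. Blue points are unstressed and orange points stressed libraries, the red diamond is the library titled 18, and numbers give the titles of libraries named in the text; the 2 groups overlap in every panel.

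Receptor and channel genes are long, and gene length moved with the difference. The authors' counts cover whole genes, introns included. Genes spanning over 200 kb had a median log2 fold change of -0.20, with 16.3% of 1062 above 0, and genes spanning under 10 kb had a median of 0.06, with 61.0% of 5532 above 0. Genes spanning 10 to 100 kb had a median of -0.01, with 46.7% of 10948 above 0. The median span was 349 kb for the glutamate receptor list, 147 kb for the channel list and 13.2 kb for interferon-stimulated genes. The last of these falls in the class of 10 to 100 kb. Without library 18 the shares over 200 kb and under 10 kb were 16.6% and 56.2%. With the slope of each library on GC content as a covariate they were 16.1% and 65.3%. Without library 40 the share over 200 kb was 27.6%, and with the mitochondrial share as a covariate it was 26.4%. The part of gene length in the values of the receptor and channel lists was not tested.

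**Figure D3:**
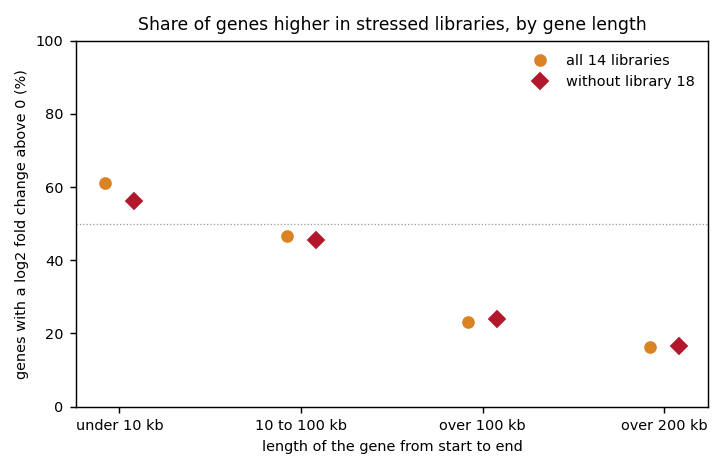
Share of tested genes with a log2 fold change above 0, stressed over unstressed Slit1-virus libraries, by the length of the gene from start to end, with the class over 200 kb also counted in the class over 100 kb. Orange circles are the fit with all libraries and red diamonds the fit without the library titled 18; the shares go from 61.0% and 56.2% under 10 kb to 16.3% and 16.6% over 200 kb, and the dotted line marks 50%.

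The 12 named genes of smallest p on the lower side with all libraries were Fam13c, Cdiptos, Atxn2, Gpr176, Prkce, Ttr, Nipa1, Armh1, Slc15a5, Grin2b, Gnao1 and Pcsk5. Fam13c (chromosome 10, 70440481 to 70558736) had 55.3, 71.3 and 104 CPM unstressed and 49.5, 55.8 and 64.2 CPM stressed, with every stressed library below the unstressed mean. Its log2 fold change was -0.40 ± 0.13, with an edgeR p of 0.00383 before and 1.00 after adjustment, and -0.43 ± 0.13 without library 18. Leaving out library 38 instead gave -0.30. Prkce, the epsilon form of protein kinase C, had 291, 344 and 677 CPM unstressed and 255, 277 and 370 CPM stressed, and 5 stressed libraries lay below all unstressed ones. Its log2 fold change was -0.42 ± 0.15, or -0.49 ± 0.15 without library 18 and -0.23 without library 38. Gpr176, an orphan receptor of the circadian clock, stood at -0.57 ± 0.20 and then -0.68 ± 0.20, Gnao1, the main G protein alpha subunit of neurons, at -0.50 ± 0.19 and -0.59 ± 0.19, and Atxn2, an RNA-binding protein, at -0.31 ± 0.11 and -0.34 ± 0.11. Without library 38 these 3 stood at -0.35, -0.31 and -0.20. In Fam13c, Prkce, Gpr176, Gnao1 and Atxn2 library 18 was the highest stressed library and library 38 the highest unstressed one.

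Leaving out library 18 brought other genes to the top of the lower side. Plxna2, a plexin receptor for semaphorins, had 165, 193 and 287 CPM unstressed and 123, 151 and 171 CPM in the 6 remaining stressed libraries, while library 18 itself had 260 CPM. Its log2 fold change was -0.46 ± 0.12 without library 18, with an edgeR p of 0.000987 before and 1.00 after adjustment, and -0.31 ± 0.14 with it. With library 18 kept and library 38 left out, Plxna2 stood at -0.21. Zmat3, an RNA-binding protein of the p53 response, had 46.5 to 70.4 CPM unstressed and 29.2 to 45.9 CPM in those 6 libraries, which did not overlap, and 64.3 CPM in library 18. Nos1ap, an adaptor of neuronal nitric oxide synthase, stood at -0.56 ± 0.17 without library 18, at -0.37 with all libraries and at -0.20 without library 38. Without library 18, 5 of 19340 genes (0.0259%) had all stressed libraries below all unstressed ones, and with it none of 19171 did (0.0%). The 5 were Zmat3, Fam168a, Ube2h, D10Wsu102e and the unnamed clone B830042I05Rik, which is named here because it is in that count.

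On the higher side, Dcn was the one gene of 19171 (0.00522%) whose 7 stressed libraries all lay above the 7 unstressed ones. Dcn (chromosome 10, 97479609 to 97518143) encodes decorin, a small proteoglycan of connective tissue and meninges. It had 15.8, 27.9 and 35.3 CPM unstressed and 37.5, 41.1 and 86.5 CPM stressed. LacZ-virus libraries spread more widely, from 3.68 to 62.0 CPM unstressed and from 7.05 to 57.6 CPM stressed. Library 18 held 37.6 CPM, near the bottom of the stressed range, and the fold change was as large without it, 0.94 ± 0.45 against 0.89 ± 0.43 on the log2 scale. The edgeR p was 0.0478 before and 1.00 after adjustment. Without library 18, 3 of 19340 genes (0.0155%) had all stressed libraries above all unstressed ones, namely Dcn, Nipal1 and Gm5434. That share was also smaller than the 1 gene in 1716 that chance would give.

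Gm5434, a predicted gene (chromosome 12, 36090379 to 36091829), had the smallest p of the stress comparison without library 18; it was singled out after its values were seen. It had 0.0527, 0.276 and 0.468 CPM unstressed and 0.408, 0.786 and 1.14 CPM stressed, and 6 of 7 stressed libraries lay above all unstressed ones. The lone stressed library within the unstressed range was library 18, with 18 counts. The log2 fold change was 1.38 ± 0.30, or 1.49 ± 0.30 without library 18, with an edgeR adjusted p of 1.00 and 0.610. It was the one gene that any other tool called, at an adjusted p of 0.00715 in DESeq2 and of 0.0207 in limma voom, both without library 18.

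Ier2, an immediate early gene, had 0.392, 0.685 and 0.926 CPM unstressed and 0.741, 1.11 and 1.93 CPM stressed, with all 7 stressed libraries above the unstressed mean. The log2 fold change of Ier2 was 0.79 ± 0.30 and then 0.84 ± 0.31. Mrpl30, a mitochondrial ribosome protein, stood at 0.29 ± 0.11 and then 0.33 ± 0.11, and Rcn1, a calcium-binding protein of the endoplasmic reticulum, at 0.46 ± 0.17 and 0.51 ± 0.18. Hormad1, a chromosome axis protein of meiosis, stood at 1.5 ± 0.49 and then 1.61 ± 0.50, but from a median of 0.124 CPM. Ccl11, the eosinophil chemokine eotaxin, had 0.214 CPM or less in every unstressed library and up to 2.57 CPM in stressed ones, where 3 of 7 lay above all unstressed libraries. That gave a log2 fold change of 2.52 ± 0.85, or 2.73 ± 0.84 without library 18. The 2.57 CPM belonged to library 31, without which Ccl11 stood at 1.71, and the stressed library titled 33 had 1.81 CPM. Unstressed LacZ-virus libraries had up to 1.19 CPM of Ccl11.

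**Figure D4:**
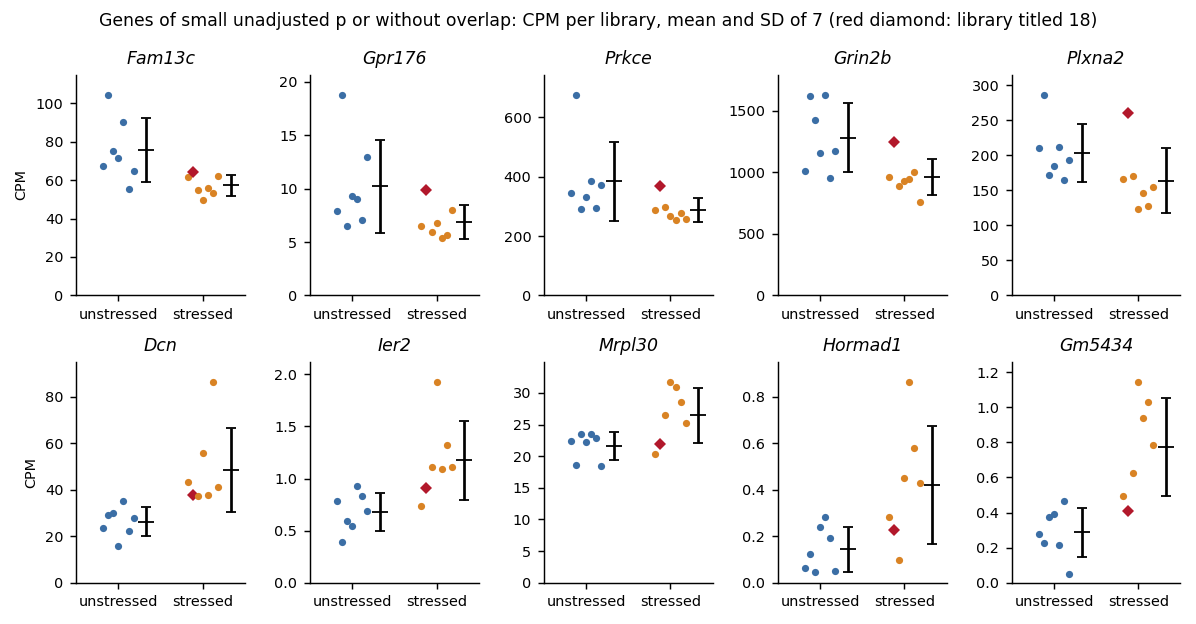
CPM per library of 10 genes with a small unadjusted p or without overlap, each panel starting at 0. Blue points are unstressed and orange points stressed Slit1-virus libraries, the red diamond is the library titled 18, and bars give the mean and SD of 7; library 18 lies above the stressed mean in the 5 genes of the top row and below it in the 5 of the bottom row.

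Interferon and most immune gene lists had medians above 0, but several depended on single libraries. Of 14 microglia markers, 10 lay above 0 with a median of 0.11, or 0.08 without library 18. That median was -0.15 without library 19, -0.09 without library 36 and -0.04 without library 40. Of 25 complement and phagocytosis genes, 20 lay above 0 in both fits, with medians of 0.16 and 0.20, but the median was -0.0016 without library 36. Interferon-stimulated genes are switched on by STAT and IRF factors that bind a repeated element in their promoters. Of 35 tested, 32 lay above 0 with a median log2 fold change of 0.38, and without library 18 the count was 33 of 35 with a median of 0.51. The median was 0.24 without the stressed library titled 20 and also 0.24 without the unstressed library titled 36. Ifi27l2a had 8.72, 12.1 and 24.8 CPM unstressed and 10.5, 23.6 and 45.4 CPM stressed, a log2 fold change of 0.72 ± 0.37, or 0.85 ± 0.37 without library 18. Gbp2, a guanylate-binding protein that attacks intracellular pathogens, had 74.0, 393 and 523 CPM unstressed and 168, 707 and 832 CPM stressed, where 4 stressed libraries lay above all unstressed ones. Its log2 fold change was 0.74 ± 0.58, or 0.90 ± 0.59 without library 18. Ifit2, which blocks translation of viral RNA, stood at 0.75 ± 0.59 and then 0.92 ± 0.59, and Ifit1 at 0.59 ± 0.58 and 0.76 ± 0.59.

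The promoters of Gbp2 and Ifit1 show the letters of that element. They are given as 300 bases, from 250 before to 50 after the start, from RefSeq on GRCm38.p6, 5′ to 3′ on the strand of the gene, and were picked after the values were seen. Capitals mark matches to the motif searched, GAAA, then 2 bases of any kind (NN), then GAAA again, or its reverse complement, TTTC, NN and TTTC, with overlapping matches joined. Gbp2 lies at chr3:142620413-142620712 on the + strand and Ifit1 at chr19:34640639-34640938 on the + strand.
Gbp2: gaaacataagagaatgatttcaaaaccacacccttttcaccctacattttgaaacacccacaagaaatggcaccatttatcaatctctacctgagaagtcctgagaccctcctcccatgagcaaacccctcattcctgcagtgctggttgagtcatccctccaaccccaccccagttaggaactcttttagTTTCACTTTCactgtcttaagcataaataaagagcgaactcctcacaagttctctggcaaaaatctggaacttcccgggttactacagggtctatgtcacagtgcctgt
Ifit1: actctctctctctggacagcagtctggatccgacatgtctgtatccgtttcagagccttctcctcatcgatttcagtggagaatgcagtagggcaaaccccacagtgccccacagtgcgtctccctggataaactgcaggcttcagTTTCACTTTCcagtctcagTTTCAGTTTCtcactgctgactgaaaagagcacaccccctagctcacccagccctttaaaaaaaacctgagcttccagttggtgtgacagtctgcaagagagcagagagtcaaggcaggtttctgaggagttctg
The Gbp2 promoter held 1 match and the Ifit1 promoter 2. Of the 29 promoters listed for 24 of the interferon-stimulated genes tested, 15 held a match on either strand (51.7%), against 1131 of all 32851 promoters of that length (3.44%). A match describes the letters and not a bound factor.

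Stressed library 18 was the lowest stressed library for the interferon list, at 0.61 log2 units below the unstressed mean, and the other 6 ran from 0.27 to 1.11 above it. Unstressed libraries ran from -0.79 to 0.94. Of 25 cytokine, chemokine and acute phase genes tested, 22 lay above 0 in both fits, with medians of 0.43 and 0.55. Il1rn, the interleukin-1 receptor antagonist, had 2.07, 8.32 and 17.7 CPM unstressed and 4.44, 20.6 and 54.0 CPM stressed, a log2 fold change of 1.51 ± 0.84, or 1.69 ± 0.86 without library 18. Ccl7, a monocyte chemokine, stood at 1.22 ± 0.72 and then 1.41 ± 0.71, and Cxcl1, a neutrophil chemokine, at 1.58 ± 0.71 and 1.76 ± 0.71, but at 1.03 without the stressed library titled 33. Of 19 antigen presentation genes, 16 lay above 0 with a median of 0.26, and 18 did without library 18 with a median of 0.33, but the median was 0.08 without library 36.

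Lymphocyte genes had the same sign. Of 22 T cell and cytotoxic lymphocyte genes, 20 lay above 0 in both fits, with medians of 0.16 and 0.26. The median was -0.04 without library 36 and 0.02 without library 40. Gzmb, granzyme B of cytotoxic cells, had 3.46, 48.5 and 65.9 CPM unstressed and 17.6, 62.5 and 133 CPM stressed, a log2 fold change of 0.82 ± 0.67, or 0.99 ± 0.68 without library 18. Klrd1, a receptor of natural killer cells, stood at 1.00 ± 0.62 and then 1.19 ± 0.61. The T cell markers Cd3e and Cd8a lay nearer 0. Cd3e stood at 0.07 ± 0.61 and then 0.22 ± 0.63, and Cd8a at 0.15 ± 0.72 and 0.27 ± 0.76. Library 36 lay 2.51 log2 units below the unstressed mean for this list, the lowest of the 14, and library 18 was the lowest stressed one at -0.37. In bulk tissue, fewer cells of a type and less RNA per cell cannot be told apart. Of 29 cell cycle genes, 28 lay above 0 in both fits, with medians of 0.35 and 0.44, and the median was 0.22 without library 36. Among them Ccnd1, a G1 cyclin, stood at 0.42 ± 0.24 and then 0.55 ± 0.23, and Pcna, the DNA polymerase clamp, at 0.35 ± 0.27 and 0.46 ± 0.27. Ccnd1 stood at 0.27 without library 33 and Pcna at 0.23 without library 38. The part of lymphocyte content in the interferon and cell cycle values was not tested.

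**Figure D5:**
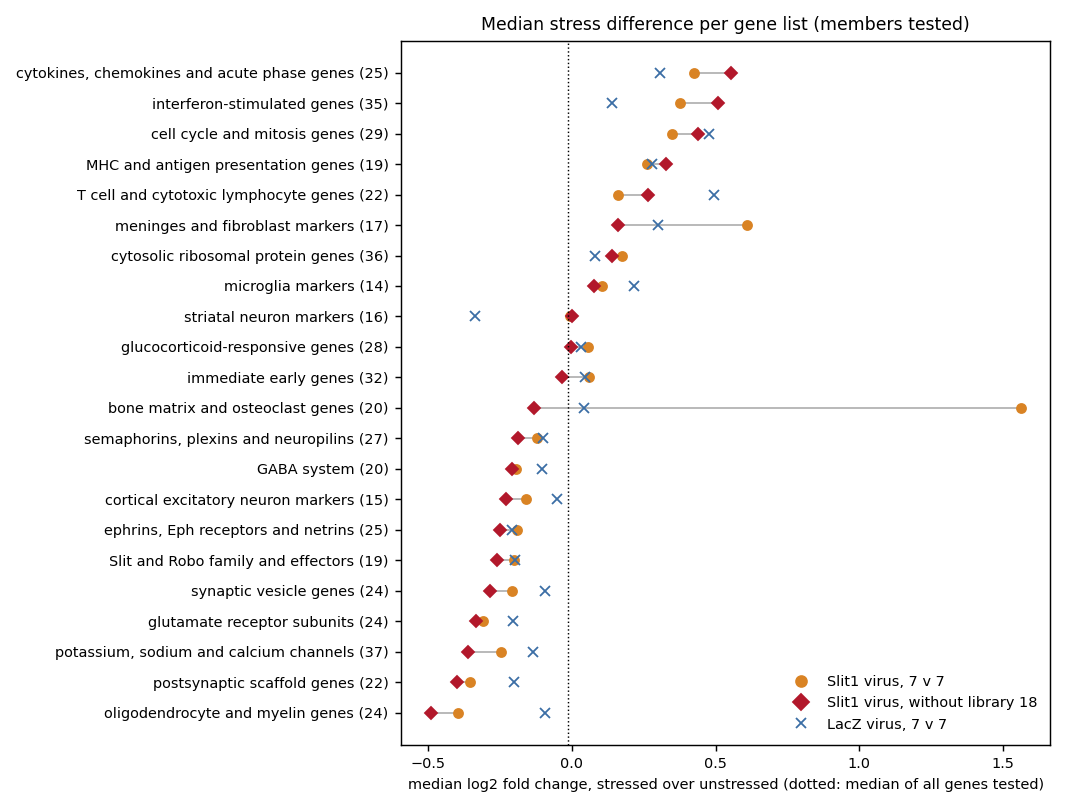
Median log2 fold change, stressed over unstressed, of the members tested in 22 gene lists. Orange circles are the 7 with 7 Slit1-virus libraries, red diamonds the same without the library titled 18, blue crosses the LacZ-virus libraries, and the dotted line is the median of all genes tested; the bone list moves from 1.56 to -0.13 without library 18, and the synaptic, channel and myelin lists lie left of the line in both fits.

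Myelin genes had the lowest median of the lists shown. Of 24 oligodendrocyte and myelin genes, 1 lay above 0 with a median log2 fold change of -0.40, and 2 did without library 18 with a median of -0.49. Fa2h, which makes the hydroxylated lipids of myelin, had 1.77, 4.38 and 9.27 CPM unstressed and 1.48, 2.25 and 6.08 CPM stressed, a log2 fold change of -0.64 ± 0.34, or -0.73 ± 0.36 without library 18. The 9.27 CPM belonged to the unstressed library titled 40, without which Fa2h stood at -0.36 and the list median at -0.20. Opalin, a membrane protein of oligodendrocytes, stood at -0.58 ± 0.37 and then -0.71 ± 0.38, and at -0.33 without library 40. The stressed library titled 34 was the highest stressed library for this list, and the median without both 18 and 34 was -0.75.

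Library 34 also stood apart by region. Its striatal markers lay 1.53 log2 units above the unstressed mean. The unstressed library titled 37 also had high striatal markers, 1.24 above that mean. The excitatory cortical markers of library 34 lay 1.26 below the unstressed mean. The striatal list had a median of -0.01 with all libraries and of -0.00068 without library 18. It was -0.42 without library 34 and 0.41 without library 37.

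Genes known to answer stress hormones and neuronal activity were split in sign. Of 28 glucocorticoid-responsive genes, 16 lay above 0 with a median of 0.06, and of 32 immediate early genes 18 did, also with a median of 0.06. Both medians changed sign without library 18, to -0.0046 with 14 of 28 above 0 and to -0.034 with 15 of 32. Fkbp5, a chaperone that restrains the glucocorticoid receptor, had 27.7, 37.8 and 75.4 CPM unstressed and 37.9, 47.7 and 60.1 CPM stressed, a log2 fold change of 0.16 ± 0.18, or 0.17 ± 0.19 without library 18, with the groups overlapping. Sgk1, a kinase induced by glucocorticoids, stood at 0.01 ± 0.12 and then -0.023 ± 0.12, and Tsc22d3, which encodes GILZ, at 0.26 ± 0.18 and 0.25 ± 0.19. Among activity genes, Fos stood at 0.08 ± 0.28 and then 0.11 ± 0.29. Arc stood at 0.14 ± 0.72 with library 18 but at -0.17 ± 0.75 without it, and Npas4 at 0.34 ± 0.76 but at 0.0083 ± 0.79 without it. Egr1 stood at -0.39 ± 0.22 and then -0.50 ± 0.23 and Nr4a3 at -0.45 ± 0.19 and -0.56 ± 0.19. Per1, a clock gene induced by both, stood at -0.17 ± 0.68 and then -0.37 ± 0.72 and Nr4a1, a nuclear receptor of activity, at -0.13 ± 0.43 and -0.34 ± 0.44. Bdnf, the neurotrophin released with activity, stood at -0.32 ± 0.33 and then -0.29 ± 0.35, but at -0.013 without library 40. Leaving out single libraries moved Fkbp5 between 0.079 and 0.36, Npas4 between 0.0083 and 0.65 and Nr4a1 between -0.34 and -0.022, and changed the sign of Sgk1, Fos, Arc and Per1. Its receptor Ntrk2 had 569, 602 and 829 CPM unstressed and 464, 532 and 641 CPM stressed, a log2 fold change of -0.23 ± 0.12, or -0.28 ± 0.13 without library 18 and -0.15 without library 38.

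Whether stress acted differently under the Slit1 virus than under LacZ was tested by the difference between their stress effects. No gene passed an adjusted p of 0.05 in edgeR, 0 of 19171 (0.0%) with library 18 and 0 of 19340 (0.0%) without it, and 68 (0.355%) and 71 genes (0.367%) had an unadjusted p under 0.05. Those shares also lay below the share of 0.05 that this threshold gives when no gene differs. The difference lay above 0 for 48.6% of genes with library 18 and for 47.0% without it. For Grin2b the difference was -0.23 ± 0.22 on the log2 scale and -0.31 ± 0.22 without library 18, with the stress effect at -0.18 ± 0.15 under LacZ. For Prkce it was -0.28 ± 0.21 and then -0.35 ± 0.21, and for Plxna2 -0.20 ± 0.20 and then -0.35 ± 0.17. For Dcn it was 0.88 ± 0.60 and then 0.93 ± 0.62, with a stress effect of 0.01 ± 0.42 under LacZ. For Hormad1 it was 1.79 ± 0.68 and then 1.90 ± 0.69, and for Mmp13, a gene of library 18, it was 5.02 ± 1.75 with that library and -0.43 ± 0.92 without it.

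The lists stood side by side as follows, with library 18 included; their medians without it are those given above. Glutamate receptors had a median of -0.31 under the Slit1 virus and -0.21 under LacZ, with all 24 below 0 under both. Scaffold genes had -0.35 and -0.20, channels -0.25 and -0.14, and myelin genes -0.40 and -0.09. Interferon-stimulated genes had 0.38 and 0.14, cell cycle genes 0.35 and 0.48, and T cell genes 0.16 and 0.50. Genes spanning over 200 kb had medians of -0.20 and -0.14, with 16.3% and 12.3% above 0. None of these lists held a gene for which the difference between the viruses passed the test.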

How the data were processed

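Total RNA of the vmPFC was sequenced from 14 mice labelled with the Slit1 virus, 7 stressed for 3 days and 7 unstressed, and from 14 mice with the LacZ virus, with 7 individual mice per group per the labels' protocols. Per the file headers, the authors counted read pairs per gene with featureCounts 1.6.2 over whole gene spans (Ensembl release 90, GRCm38) from alignments whose names mark removed duplicates, with no strand option, although the kit keeps the strand. The submitters' processing notes also list HISAT2, Subread, DESeq2 and mm10, with no role stated. The deposited values are raw counts per gene. Reads from introns are thus included, reads in a stretch shared by genes went to neither, and a gene cannot be told from its antisense partner. Of 12185 genes wholly inside others, 99.9% were at 0 in all libraries. Of 52636 genes, 52403 had a symbol.

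The main test was the robust quasi-likelihood test of edgeR 4.0.16 (R 4.3.3; glmQLFit, then glmQLFTest) after filterByExpr by group and TMM scaling, over all 28 libraries so that the groups share one estimate of spread, and again over the 27 without the stressed library titled 18. The common biological coefficient of variation was 0.467 and 0.470. A call needed a p under 0.05 after Benjamini-Hochberg adjustment over all genes tested. CPM values use the TMM-scaled library size, log2 CPM a prior count of 2, and SE is the log2 fold change over the root of the F statistic. The script was tested on simulated counts, drawn independently for each gene and library. They held no bone-rich library and no shared axis of variation, so they check the code only. DESeq2 1.42.0 and limma 3.58.1 were alternatives, and DESeq2 by default replaces outlying counts in groups of 7. Depth was 30647778 to 44281716 counts per library, which limits genes under about 1 CPM most. No pair of libraries held identical counts.

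Gene lists are described by the number of tested members above 0 and their median. The genes named were the Slit and Robo genes, the stress and activity genes Fkbp5, Sgk1, Tsc22d3, Per1, Fos, Arc, Npas4, Nr4a1 and Bdnf, the 12 of smallest p each way with and without library 18, genes whose groups did not overlap, up to 4 members of smallest p per list, the 6 of smallest p each way for the difference between the viruses, and markers of the libraries that stand apart. Not every gene the rule allows is printed. Predicted genes, pseudogenes and unnamed clones were left out of the ranks by p and of the genes without overlap. Ifit1, Gm5434 and B830042I05Rik lie outside the rule and were chosen after their values were seen. The libraries compared, the lists and the rule were chosen with earlier results of these data known. Promoter sequences come from RefSeq on GRCm38.p6.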

Additional observations from a re-analysis of the deposited data

Results flagged for a closer look

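In 198 sets of 7 libraries (75 of the genes named, 22 of the 43 list levels, the mitochondrial share and the total count, each in the stressed and in the unstressed Slit1-virus group, on the log2 scale for genes), the highest or lowest library stood apart in 23 by Dixon's 95% criterion for 7 values. Chance flags about 1 set in 20, and sets that share genes or libraries are not independent.

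The stressed library titled 18 stood apart in 12 sets. It was highest for the bone genes Mmp13 (223 CPM), Ctsk (252 CPM), Mmp9 (95.5 CPM), Col1a2 (999 CPM), Ibsp (218 CPM), Col1a1 (633 CPM), Dmp1 (39.9 CPM) and Spp1 (290.3 CPM). Its bone list level lay 4.48 log2 units above the unstressed mean. It was also the highest stressed library for Prkce (370.4 CPM), Fam168a (246 CPM) and D10Wsu102e (111 CPM).

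The unstressed library titled 38 stood apart in 5 sets. It was highest for Kcnj6 (198 CPM), Ntrk2 (829 CPM) and Prkce (677 CPM), and lowest for Spp1 (2.77 CPM). Its level of the Slit and Robo list lay 0.44 log2 units above the unstressed mean.

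The unstressed library titled 40 was listed at 0 for Col1a1 (0 CPM), was lowest for Gm5434 (0.0527 CPM) and highest for Sgk1 (90.7 CPM). The unstressed library titled 36 was lowest for Gzmb (3.46 CPM). The stressed library titled 34 was highest for striatal markers, 1.53 log2 units above the unstressed mean. The stressed library titled 20 had the lowest total count of its group, 32.0 M (32027945).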

How the results depend on the processing

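The number of called genes stayed at 0 under every alternative run, with 2 kinds of exception. Without library 18, DESeq2 and limma voomWithQualityWeights each called 1 gene, Gm5434. A looser criterion, a fold change of 1.3 or more and p under 0.05 before adjustment, was met by 261 genes with library 18 and 404 without it, and by 67 and 69 for the difference between the viruses. The 343 genes at an unadjusted p under 0.05 became 951 with limma voom, 1016 with no count filter, 1010 with the mitochondrial share, 1628 with the GC slope and 536 with the title number above 20 as a covariate, 579 without libraries 18 and 34, 223 without library 31 and 609 without library 37. The 533 without library 18 became 2457, 1024, 1648, 2279 and 814 under the first 5 of these, and 294, 317 and 337 without library 38, 20 or 31 as well. Over all genes, 47.5% lay above 0 in the main fit with library 18. That share was 41.4% with the title number, 53.2% with the mitochondrial share and 52.2% with the GC slope as a covariate. Slit1 stayed below 0 under all its alternatives, between -0.64 and -0.20 on leaving out 1 library, with exact p from 0.182 to 0.640.

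Of 75 named genes, 16 changed sign under at least 1 alternative, and the cause was not tested. With DESeq2 the log2 fold change was -0.33 for Col1a1, -0.19 for Col1a2, -0.20 for Ctsk, -0.077 for Dmp1, -0.22 for Ibsp and -0.63 for Mmp9. With limma voom it was -0.35 for Col1a1, -0.84 for Ibsp, -0.47 for Arc, 0.080 for Bdnf, -0.013 for Fkbp5, -0.48 for Npas4, -0.39 for Slc17a7 and 0.016 for Slit2. With the mitochondrial share as a covariate it was -0.23 for Arc, 0.00093 for Bdnf, 0.0098 for Robo2, -0.14 for Slc17a7 and 0.023 for Slit2. Leaving out 1 library at a time, the ranges were -1.17 to 5.76 for Col1a1, -0.17 to 3.37 for Col1a2, -0.22 to 3.85 for Ctsk, -0.094 to 2.18 for Dmp1, -1.75 to 7.16 for Ibsp and -0.63 to 5.51 for Mmp9. They were -0.23 to 0.43 for Arc, -0.022 to 0.37 for Fos, -0.43 to 0.075 for Per1, -0.055 to 0.12 for Sgk1, -0.26 to 0.42 for Slc17a7 and -0.30 to 0.0042 for Slit2. No paired analysis was possible because the replicate numbers were given in accession order and pair no animals. The lane of each library was not given, and lane was not part of any fit.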

Other observations

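Lists outside the comparisons above gave these values for stress under the Slit1 virus, with no member passing the test. Of 36 cytosolic ribosomal protein genes tested, 35 lay above 0 with a median log2 fold change of 0.17 (0.14 without library 18), but 22 of 36 did with the mitochondrial share as a covariate and the median was -0.09 without the stressed library titled 19. Rps20 stood at 0.36 ± 0.14 and Rpl5 at 0.30 ± 0.15, or 0.42 ± 0.14 and 0.35 ± 0.15 without library 18. Of 41 nuclear genes of oxidative phosphorylation, 35 lay above 0 with a median of 0.12, which was 0.057 without library 18 and -0.0049 without library 19. All 13 genes of the mitochondrial genome lay below 0 with a median of -0.22, and the median was -0.17 without library 18 and 0.13 without the unstressed library titled 40, which held 14.2% mitochondrial counts. Of 15 deep cortical layer markers, 4 lay above 0 with a median of -0.17, and of 17 neurotrophins and receptors 3 did with a median of -0.23. Without library 18 these medians were -0.30 and -0.29, and without library 38 they were -0.039 and -0.060. Ttr, a choroid plexus gene, had 0.149 to 1.20 CPM unstressed and 0.0301 to 0.558 CPM stressed, a log2 fold change of -1.37 ± 0.48, or -1.36 ± 0.52 without library 18. The choroid plexus list was split in sign, with 4 of 8 tested above 0 and a median of -0.06. Without library 18, 5 of 9 lay above 0 with a median of 0.03. Aqp1, another gene of that list, stood at 0.86 ± 0.67 and then 0.70 ± 0.70.

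Of 8 B cell and plasma cell genes tested, 7 lay above 0 with a median of 0.75, the second highest after the bone list. The median was 0.62 without library 18, where 9 of 10 lay above 0, and 0.26 without the stressed library titled 19, which had the highest level of that list, 2.25 log2 units above the unstressed mean.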
